A study of Sus scrofa with 32 samples.

Results

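Ribosomal proteins are the protein parts of the 2 ribosomes of an animal cell, the cytosolic one and the smaller one inside mitochondria. The genes described here were taken by name from the pig count table. Symbols starting with RPL or RPS, without the S6 kinases, gave the cytosolic set, and symbols starting with MRPL or MRPS gave the mitochondrial set. Of 25322 gene IDs in the table, 11804 had a symbol in the name table used, and 72 of them met the rule. The cytosolic set held 28 genes, 13 of the large and 15 of the small subunit. The mitochondrial set held 44 genes, 30 of the large and 14 of the small subunit. Another 51 ribosomal protein genes of the name table, 30 cytosolic and 21 mitochondrial, had no ID in the count table and were not analysed here, among them RPL3, RPL3L, RPLP0, RPS6, RPSA and MRPL12. The sets are therefore samples of each ribosome and not all of it.

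Muscle was taken after slaughter from 16 gilts, all labelled as aged 180 days. Of these, 8 were of the native Pulawska breed (PUL) and 8 of Polish Landrace (PL), the first a fatter and the second a leaner type of pig. The study fed pigs to a set body weight and treated age at slaughter as a trait, so ages differed between pigs despite the label. It reported a higher daily gain in PL than in PUL. Age at slaughter may thus differ between the breeds, and its part cannot be told apart from breed here. Each pig gave a library of the longissimus dorsi, the loin muscle (LD), and one of the semimembranosus, a ham muscle (S), so that 4 groups of 8 libraries resulted. The pigs were unrelated, came from different farms and were kept at one test station with the same feed. RNA was depleted of ribosomal RNA before sequencing, so what was counted was messenger RNA of the ribosomal proteins and not ribosomes.

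Cytosolic ribosomes make all proteins encoded in the nucleus. Messages of their proteins are abundant, short and spliced from compact genes, and in mammals most carry a pyrimidine tract at the 5′ end through which mTOR signalling controls their translation. Mitochondrial ribosomes, whose proteins are also encoded in the nucleus and imported, make only the few respiratory chain proteins that mitochondrial DNA encodes. In muscle, both are known from growth and from endurance training, in which protein synthesis and mitochondrial content change.

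Total counts per library ranged from 8821273 to 24761853. All 72 genes passed the filter on low counts in every comparison. The median count per library of a cytosolic gene ran from 105 for RPL36AL to 84789 for RPLP1, and of a mitochondrial gene from 40.5 for MRPL54 to 2989 for MRPL28. No file used here gives transcript lengths, so levels were compared between libraries and never between genes. Counts of RPL10L, RPL26L1, RPL36AL, RPS27L and other members with near-identical copies elsewhere in the genome depend on how shared reads were divided and are uncertain. In whole muscle, fewer cells of a type and less RNA per cell cannot be told apart.

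Some libraries went against their labels. Developmental genes that keep a record of body position, chosen after their values had been seen, separated LD from S in the other libraries, with ZIC1 between 1.68 and 7.53 CPM (counts scaled to the size of the library) in LD and between 0.145 and 0.763 in S. The library labelled PL LD pig 14 held 0.0647 CPM of ZIC1 and 1.10 of HOXA10, against at most 0.155 of HOXA10 in the other LD libraries. The library labelled PL S pig 14 held 2.77 CPM of ZIC1 and none of HOXA10. The library labelled PL S pig 8 was mixed, with 3.88 CPM of ZIC1, as in LD. Its ZIC4 (1.18), HOXC6 (1.29) and HOXA7 (1.77) also lay outside the S libraries of pigs other than 8 and 14, toward LD. Its HOXA10, at 0.471, was above those other LD libraries and at the low end of the S libraries of the other pigs. These libraries were kept under their labels. Some results on PL pigs, mainly set medians, are also given without pigs 8 and 14. The mitochondrial shares, the within-pig counts and most single genes are not. Messages typical of liver cells (21 genes) summed to at least 29.9 CPM in every library from PUL pigs 1 to 5 and reached 1653 CPM in PUL S pig 5, against 9.79 to 69.4 in the other PUL and 11.1 to 36.2 in the PL libraries. TAT was at 0 in all PL libraries and APOA2 in all of PL LD. Some results on PUL pigs are also given without these 5 pigs, mostly where a value changed.

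The cytosolic set took between 1.35% and 3.92% of all counts, a 2.91-fold range over the 32 libraries, and the groups overlapped almost fully. In PUL LD the share ran from 1.98% (pig 3) over a median of 2.69% to 3.92% (pig 2). In PL LD it ran from 1.64% (pig 12) over 2.47% to 3.61% (pig 10). In PUL S it ran from 1.83% (pig 4) over 2.34% to 3.81% (pig 1), and in PL S from 1.35% (pig 14) over 2.46% to 3.13% (pig 12). Within a group the highest share was between 1.99 and 2.32 times the lowest, a wider spread than the distance between any group medians. Without PL pigs 8 and 14 the PL S median was 2.72% and the PL LD median stayed at 2.47%.

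The mitochondrial set took far fewer counts and varied less, from 0.147% to 0.249%, a 1.69-fold range. Group medians were 0.195% in PUL LD, 0.183% in PL LD, 0.208% in PUL S and 0.192% in PL S. Values in PUL LD ran from 0.173% to 0.249%, in PL LD from 0.147% to 0.227%, in PUL S from 0.177% to 0.248% and in PL S from 0.160% to 0.209%. PUL pig 2 was the highest of its group in both muscles. The ratio of cytosolic to mitochondrial counts had medians of 12.5, 14.3, 12.1 and 12.9 in the same order and ran from 8.44 in the library labelled PL S pig 14 to 17.4 in PL LD pig 10. No test was made on these shares, since the members were chosen by the rule with earlier results known.

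Within pigs, the cytosolic share had no common direction between muscles. It was higher in S than in LD in 3 of 8 PUL and 5 of 8 PL pigs, and the mitochondrial share gave the same numbers. These shares are of all counts, while the fits below scaled libraries by TMM factors. In those fits both set medians for S over LD were above 0 in PUL and below 0 in PL, so the 2 measures did not go the same way. PL pig 14 had the lowest ratio of S to LD for the cytosolic set, at 0.4499, followed by PL pig 10 at 0.523, while PL pig 12 had the highest at 1.91 and PUL pig 1 reached 1.38. Pig 14 is the animal whose 2 libraries carried the positional pattern of the other muscle. For the mitochondrial set the ratios were closer together, from 0.772 in pig 14 to 1.38 in pigs 7 and 12.

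**Figure D1:**
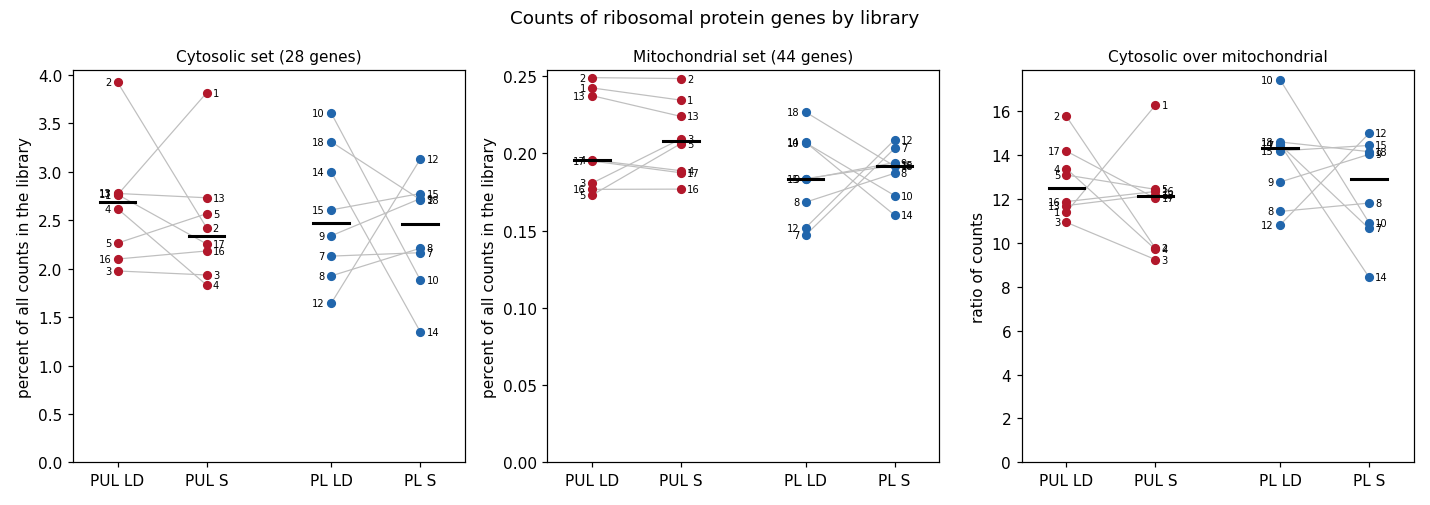
Percent of all counts in the cytosolic set, percent in the mitochondrial set, and their ratio, for each of the 32 libraries. Grey lines join the LD and S library of a pig (numbers), black bars are group medians and all axes start at 0; the groups overlap in each panel, and the cytosolic share runs from 1.35% to 3.92%.

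RPLP1, which encodes an acidic protein of the stalk of the large subunit, alone took between 16.9% and 26.0% of cytosolic set counts. Its level ran from 2807 CPM in the library labelled PL S pig 14 to 8022 in PL LD pig 7, with group medians of 5190 in PUL LD, 5725 in PL LD, 5621 in PUL S and 4747 in PL S. RPL27, a large subunit gene that the study used as an endogenous control in its qPCR, ran from 148.0 CPM in the library labelled PL S pig 14 to 676.7 in PUL S pig 1. Its group medians were close, at 351.6 in PUL LD, 400.8 in PL LD, 345.1 in PUL S and 398.0 in PL S. Its log2 fold change was 0.05 (SE 0.19) for PL over PUL in LD and -0.15 (SE 0.22) in S. RPS27L, a p53-inducible relative of RPS27, had group medians from 136.8 to 173.3 CPM. RPL7L1, a relative of RPL7 that is not part of the mature ribosome, ran from 69.1 to 107.6 CPM in all but the library labelled PL S pig 8, which held 158.6.

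The breed comparison in LD asked whether loin muscle differs between the fatter and the leaner breed. No ribosomal protein gene passed the test, which was an adjusted p at or under 0.05 with a fold change of at least 1.3 in edgeR's quasi-likelihood fit, and 0% of the 10792 genes tested passed it. The 2 sets had different medians. Genes of a set, above all the cytosolic one, varied together across libraries, as described below. Counts of genes by direction, here and in the other comparisons, are thus not counts of separate observations. The median log2 fold change, PL over PUL, was 0.14 over the cytosolic set, with 21 of 28 genes above 0, and -0.02 over the mitochondrial set, with 19 of 44 above 0, beside 0.01 over all genes tested, of which 50.8% were above 0. An unadjusted p under 0.05 was found for 3 members, all mitochondrial, while 7.15% of all genes reached it (3.64% higher and 3.51% lower in PL), so the share among the members, 4.17%, was below that of genes in general. Without PL LD pig 9 no mitochondrial gene reached it, against 6.86% of all genes. With a library left out, the cytosolic median ran from 0.08 without PL LD pig 10 to 0.20 without PL LD pig 12, and the mitochondrial one from -0.05 without PUL LD pig 2 to 0.07 without PUL LD pig 13. With library size alone in place of TMM factors the all-gene median in LD moved to -0.18, and the cytosolic and mitochondrial medians to -0.04 and -0.19, which is 0.13 above and 0.01 below it.

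The 3 were MRPL13, MRPL3 and MRPL30, proteins of the mitochondrial large subunit, each of which has a bacterial counterpart. MRPL13 measured 24.3 CPM at the lowest, 30.9 at the median and 45.0 at the highest in PUL LD, and 27.6, 43.6 and 56.3 in PL LD. In PL, 4 of 8 libraries lay above every PUL library, and the groups overlapped in the rest. The log2 fold change was 0.44 (SE 0.17, adjusted p = 0.604). MRPL3 was at medians of 28.8 CPM in PUL and 39.8 in PL, with a log2 fold change of 0.37 (SE 0.17, adjusted p = 0.659), which was 0.05 without PUL pigs 1 to 5. MRPL30 was at 54.8 and 71.4 CPM, with 5 of 8 PL libraries above every PUL library and a log2 fold change of 0.26 (SE 0.12, adjusted p = 0.694).

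Among cytosolic genes, the smallest p-values in LD belonged to RPL14 and RPL5, of the large subunit, and RPS13, of the small one. RPL5 carries the 5S ribosomal RNA into the ribosome and, outside it, binds MDM2. RPL5 ran from 835.2 to 1111 CPM in PUL LD around a median of 955.9, and from 825.8 to 1555 in PL LD around 1165. The log2 fold change was 0.25 (SE 0.15, adjusted p = 0.767). RPL14 had 0.30 (SE 0.17, adjusted p = 0.744) and RPS13 had 0.31 (SE 0.21, adjusted p = 0.818). For RPS13 the value was -0.05 without PUL pigs 1 to 5. The cytosolic median was 0.06 without these pigs, against an all-gene median then of 0.05, and 0.17 without PL pigs 8 and 14.

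In S, the question was the same for the ham muscle. Again 0% of the 10687 genes tested were called, and no member was. Both sets had medians below 0, meaning lower values in PL, at -0.11 over the cytosolic set (22 of 28 genes below 0) and -0.19 over the mitochondrial set (33 of 44 below 0), beside 0.02 over all genes, of which 52.6% were above 0. An unadjusted p under 0.05 was reached by 12 members, all of them mitochondrial, 11 lower in PL and 1 higher. That is 27.3% of the mitochondrial set, against 11.7% of all genes tested, of which 6.33% were lower in PL and 5.38% higher. The smallest adjusted p of any member was 0.219, so none of these differences passed the correction. With a library left out, the count of mitochondrial genes ran from 9 without PUL S pig 13 to 18 without PUL S pig 5, where 9.85% and 17.1% of all genes reached that level.

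The 11 genes lower in PL were MRPS24, MRPL24, MRPL28, MRPS18B, MRPS2, MRPL38, MRPS26, MRPL43, MRPL52, MRPL22 and MRPL45, named here because they make up the count. They included proteins that bacteria also have, such as MRPS2 and MRPL24, and proteins that only mitochondrial ribosomes have, such as MRPL38, MRPL43 and MRPL45, the last of which lies at the exit of the nascent chain next to the inner membrane. Of the 14 small subunit genes 11 were below 0, and of the 30 large subunit genes 22 were. The set medians were -0.29 for small and -0.17 for large subunit genes.

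MRPS24 measured 32.9 CPM at the lowest, 42.6 at the median and 51.3 at the highest in PUL S. In PL S it measured 24.8, 30.7 and 42.5. Of the PL libraries 6 of 8 lay below every PUL library, and PL pig 18 was the highest of its group. The log2 fold change was -0.43 (SE 0.12, adjusted p = 0.219), a level 1.34 times higher in PUL. Without PL pigs 8 and 14 it was -0.36 with an adjusted p of 0.195.

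MRPL24 ran from 82.7 CPM (pig 5) over a median of 145.3 to 164.2 in PUL S and from 77.5 over 93.1 to 114.7 in PL S. Here 5 of 8 PUL libraries lay above every PL library, while PUL pig 5 lay among the lowest. The log2 fold change was -0.47 (SE 0.14, adjusted p = 0.219). MRPL28, the mitochondrial member with the most counts, ran from 163.5 over 211.7 to 258.9 CPM in PUL S and from 114.4 over 156.2 to 178.1 in PL S. For MRPL28, 6 of 8 PUL libraries lay above every PL library, with a log2 fold change of -0.42 (SE 0.12, adjusted p = 0.221).

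The other genes of the count had log2 fold changes from -0.51 for MRPS2 (SE 0.17) to -0.28 for MRPL43 (SE 0.12). MRPL13 was the member higher in PL, as in LD, at medians of 34.3 CPM in PUL S and 45.5 in PL S. Its log2 fold change was 0.39 (SE 0.16, adjusted p = 0.366), and 4 of 8 PL libraries lay above every PUL library. Since LD and S came from the same pigs, the 2 values for MRPL13 do not come from separate animals.

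**Figure D2:**
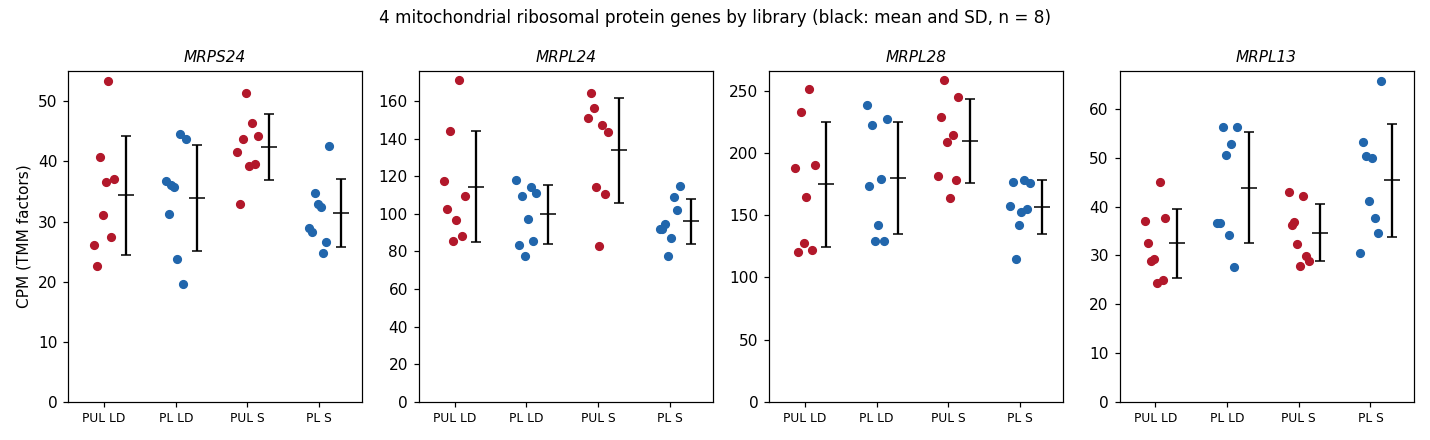
CPM of MRPS24, MRPL24, MRPL28 and MRPL13 in each of the 32 libraries, by group, with axes from 0. Black bars give the mean and SD (n = 8); in S the first 3 genes have PUL medians of 42.6, 145.3 and 211.7 above PL medians of 30.7, 93.1 and 156.2, while MRPL13 lies higher in PL, and the groups overlap in every panel.

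Among cytosolic genes with small p-values in S was RPS28, of the small subunit. It ran from 493.9 CPM over 630.3 to 894.4 in PUL S and from 331.3 over 515.4 to 753.0 in PL S, and the groups overlapped. Its log2 fold change was -0.27 (SE 0.17, adjusted p = 0.534), and its lowest library was the one labelled PL S pig 14. The cytosolic median depended on single libraries. It was -0.01 without PUL S pig 1, the library with the highest cytosolic share of its group, and -0.17 without PL S pig 18. Without PL pigs 8 and 14 it was -0.02, beside -0.01 over all genes and -0.20 over the mitochondrial set. In that fit 10 of 44 mitochondrial genes had an unadjusted p under 0.05, as did 17.1% of all genes. Without PUL pigs 1 to 5 the count was also 10, beside 14.1% of all genes, and the medians were -0.13 and -0.15, beside 0.07 over all genes.

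Markers of some other cell types had a common direction between the breeds. All 8 tested fibroblast and matrix markers had values above 0 (PL over PUL) in both muscles, the median log2 difference being 1.36 for loin and 1.10 for ham. Of them, 6 and 4 had an unadjusted p under 0.05, beside 7.15% and 11.7% of all genes, though none was called. Their summed level, over 9 genes with an ID, ran from 284.2 to 2526 CPM in PUL LD, from 593.1 to 6032 in PL LD, from 126.7 to 2359 in PUL S and from 1186 to 5727 in PL S. Of the leukocyte markers 6 of 6 were above 0 in both muscles, with medians of 0.59 and 0.26, and none had an unadjusted p under 0.05. Red blood cell markers (3 tested) had medians of 1.318 in LD, with 2 above 0, and 1.298 in S, with all 3 above 0. In LD, HBB, the beta chain of haemoglobin, had 1.78 (SE 0.54, adjusted p = 0.513), while SLC4A1 had -0.38 (SE 0.30, adjusted p = 0.855). Of 6 skeletal muscle genes, 4 were below 0 in LD (median -0.07) and 5 in S (median -0.25), the lowest p in S being that of DES, which encodes the intermediate filament desmin, at -0.70 (SE 0.24, adjusted p = 0.302). Of the endothelial markers 2 of 5 were above 0 in LD and 3 of 5 in S. Smooth muscle markers had 2 of 4 above 0 in both, and adipocyte markers 1 of 3 in LD and 1 of 2 in S. Slow fibre markers had 1 of 5 above 0 in both, and fast fibre markers 4 of 5 in LD and 2 of 5 in S. Of 4 tested hepatocyte markers, 3 were below 0 in LD and 4 in S. An unadjusted p under 0.05 was found for 2 fast fibre markers in LD, none in S, and for 2 hepatocyte markers in each muscle. No gene of these lists was called. The part of these cell types in the ribosomal protein results was not tested.

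The muscle comparison, S over LD within pigs, asked whether ham differs from loin. In PUL, 0.065% of the 10771 genes tested passed the test, and none of the 7 was a member (0.0186% of genes were called higher and 0.0464% lower in S, with or without the fold minimum). The mitochondrial set had a median log2 fold change of 0.11, with 39 of 44 genes above 0, and the cytosolic set 0.05, with 19 of 28 above 0, while 50.5% of all genes were above 0. With library size alone these medians were -0.02 and -0.08, beside -0.13 over all genes. Without PUL pig 1 the cytosolic median was -0.05. The mitochondrial median was 0.05 without pig 2 and 0.15 without pig 13. An unadjusted p under 0.05, all with higher values in S, was found for 1 cytosolic gene, RPLP2, and for 5 mitochondrial genes, MRPL22, MRPS24, MRPS18A, MRPS6 and MRPL30. Over all genes, 8.45% reached it in either direction 4.92% with higher and 3.53% with lower values in S. With a pig left out the mitochondrial count ran from 2 without pig 4 to 10 without pig 5, where 6.12% and 11.8% of all genes reached that level.

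MRPL22 ran from 11.3 CPM over 12.4 to 32.4 in PUL LD and from 14.7 over 20.7 to 29.1 in PUL S, and was higher in S in 7 of 8 pigs. Its log2 fold change was 0.40 (SE 0.14, adjusted p = 0.484). MRPS24 was higher in S in 7 of 8 PUL pigs, with medians of 33.8 and 42.6 CPM and a log2 fold change of 0.35 (SE 0.12, adjusted p = 0.484). MRPS18A, which by its name counts here as a small subunit gene although its protein sits in the large subunit of mammals, had 0.36 (SE 0.13, adjusted p = 0.511), also higher in S in 7 of 8 pigs.

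MRPS6 had the widest spread of the mitochondrial set. It ran from 8.51 to 27.9 CPM in PUL LD and from 10.99 to 61.4 in PUL S, the highest in pig 5, with a log2 fold change of 0.84 (SE 0.31, adjusted p = 0.511). RPLP2, the partner of RPLP1 in the ribosomal stalk, ran from 451.2 over 640.2 to 931.1 CPM in LD and from 640.9 over 767.7 to 950.6 in S. Its log2 fold change was 0.30 (SE 0.13, adjusted p = 0.575), and it was higher in S in 7 of 8 pigs. RPS21 had 0.33 (SE 0.20, adjusted p = 0.692) and RPS9 had 0.13 (SE 0.14, adjusted p = 0.843). Without PUL pigs 1 to 5, which leaves 3 pigs, the mitochondrial median was 0.01, the value of MRPL22 was 0.07 and 2 mitochondrial genes had an unadjusted p under 0.05, beside 8.07% of all genes.

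In PL, 0% of 10680 genes were called and no member had an unadjusted p under 0.05, a level that 1.35% of all genes reached (0.581% higher and 0.768% lower in S). The medians lay on the other side of 0 from those in PUL, at -0.16 over the cytosolic set (25 of 28 genes below 0) and -0.06 over the mitochondrial set (31 of 44 below 0). RPL29 had the smallest p of the cytosolic set. It ran from 870.0 over 1185 to 1477 CPM in PL LD and from 539.9 over 1055 to 1278 in PL S, with a log2 fold change of -0.32 (SE 0.19, adjusted p = 1). RPS3, a protein at the entry of the messenger RNA, had -0.26 (SE 0.17). Of the mitochondrial genes with the smallest p, MRPS26 had -0.25 (SE 0.17), MRPS31 0.22 (SE 0.15) and MRPL4 -0.19 (SE 0.13). With a pig left out, the cytosolic median ran from -0.30 without pig 12 to -0.06 without pig 14, and the mitochondrial one from -0.08 without pig 12 to -0.02 without pig 7. Without pigs 8 and 14, the medians were -0.11 and -0.05, and still no member had an unadjusted p under 0.05, a level that 7.27% of all genes then reached. With library size alone the all-gene median was 0.11 and the set medians were -0.04 and 0.05.

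The breed by muscle term tests whether the breed difference is another one in S than in LD. No gene was called, 0% of 11563, and 2.54% had an unadjusted p under 0.05 (0.934% above and 1.61% below 0). Both sets had medians below 0. The cytosolic median was -0.24, with 25 of 28 genes below 0 and all 15 small subunit genes among them. The mitochondrial median was -0.15, with 35 of 44 below 0. Since cytosolic genes varied together, their counts by direction are not separate observations. Over all genes the median was 0.01 and 51.8% were above 0. The members with an unadjusted p under 0.05 were MRPL28 at -0.47 (SE 0.21) and MRPS24 at -0.42 (SE 0.19), each with an adjusted p of 0.9996. Of cytosolic genes, RPS9 had -0.37 (SE 0.21) and RPS3 -0.33 (SE 0.19). Without PL pigs 8 and 14 the medians were -0.18 and -0.20. Without PUL pigs 1 to 5 they were -0.20 and -0.047, so that the mitochondrial median was far closer to 0, and no member had an unadjusted p under 0.05. With a pig left out the cytosolic median ran from -0.35 without PL pig 12 to -0.12 without PUL pig 1. With library size alone the all-gene median was 0.25 and the set medians lay 0.25 and 0.17 below it. A difference between muscles in the breed effect was thus not shown for any member.

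**Figure D3:**
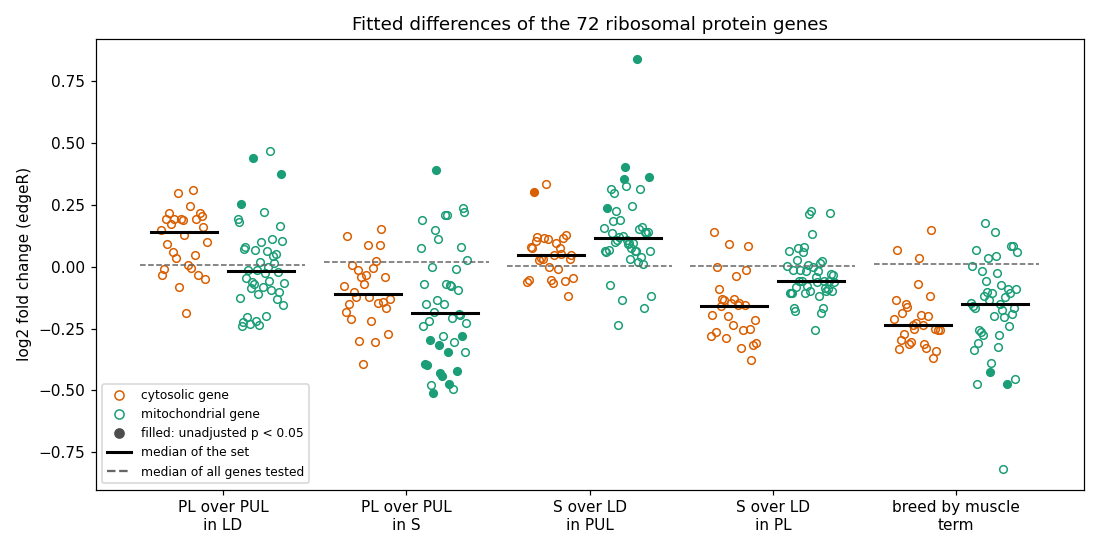
Log2 fold changes of the 28 cytosolic and 44 mitochondrial genes in the 4 comparisons and the breed by muscle term. Each point is a gene, filled where the unadjusted p was under 0.05, with set medians in black and the median of all genes tested as a dashed line; the most filled points, 12, are mitochondrial genes in S between the breeds, and no gene passed the adjusted test.

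The sets also differed in how their genes varied together. Spearman's rho was taken for every pair of genes over the 32 libraries on log2(CPM + 0.5) after removing group means. These points share pigs (2 libraries each), libraries and scaling factors, so the values describe these libraries. Within the cytosolic set the median rho was 0.661 and 374 of 378 pairs were above 0. Within the mitochondrial set it was 0.191, with 655 of 946 pairs above 0, and between the sets it was 0.213, with 837 of 1232. For all 28 cytosolic genes the median rho was higher with the cytosolic than with the mitochondrial set. Of the 44 mitochondrial genes, 25 were closer to their own set.

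The contrast between the sets was present in each group of 8 libraries. The median rho within the cytosolic set was 0.429 in PUL LD, 0.786 in PL LD, 0.619 in PUL S and 0.762 in PL S, and within the mitochondrial set 0.167, 0.310, 0.119 and 0.119. Without PL pigs 8 and 14 the medians were 0.654 and 0.209, and without PUL pigs 1 to 5 they were 0.730 and 0.255. The sets also differ in counts per gene, and the part of that in rho was not tested. The 22 mitochondrial genes with the most counts had a median rho of 0.333 among themselves and the other 22 one of 0.083.

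RPL38, a small protein of the large subunit that is known for a role in patterning of the skeleton, followed the cytosolic set best, with a median rho of 0.817 to its genes. RPL38 ran from 296.7 CPM in the library labelled PL S pig 14 to 894.8 in PUL S pig 1. The loosest members were RPL36AL at 0.267, RPL7L1 at 0.406 and RPL10L at 0.478, all named for being copies or relatives of another ribosomal protein gene. RPL36AL also had the fewest counts of the set.

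Of the mitochondrial genes, MRPL19, MRPL17 and MRPL13 varied with the cytosolic set, at 0.642, 0.610 and 0.585. MRPS27, MRPL54 and MRPL49 varied against it, at -0.615, -0.602 and -0.482. The set mean of one followed that of the other with a rho of 0.510. The SD of a gene within groups on the log2 scale was 0.338 at the median of the cytosolic set, from 0.194 for RPL4 to 0.556 for RPS21. In the mitochondrial set it was 0.296, from 0.159 for MRPL16 to 0.682 for MRPS6.

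**Figure D4:**
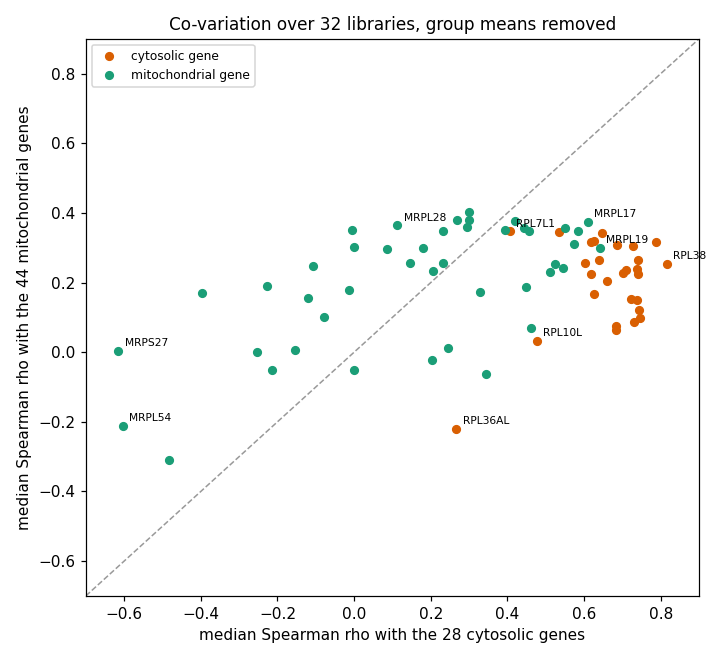
For each of the 72 genes, the median Spearman rho with the 28 cytosolic genes (x axis) and with the 44 mitochondrial genes (y axis) over 32 libraries after removing group means. All cytosolic genes lie right of the dashed line of equal values, RPL38 at 0.817, while the mitochondrial genes spread from -0.615 (MRPS27) to 0.642 (MRPL19) on the x axis.

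**Figure D5:**
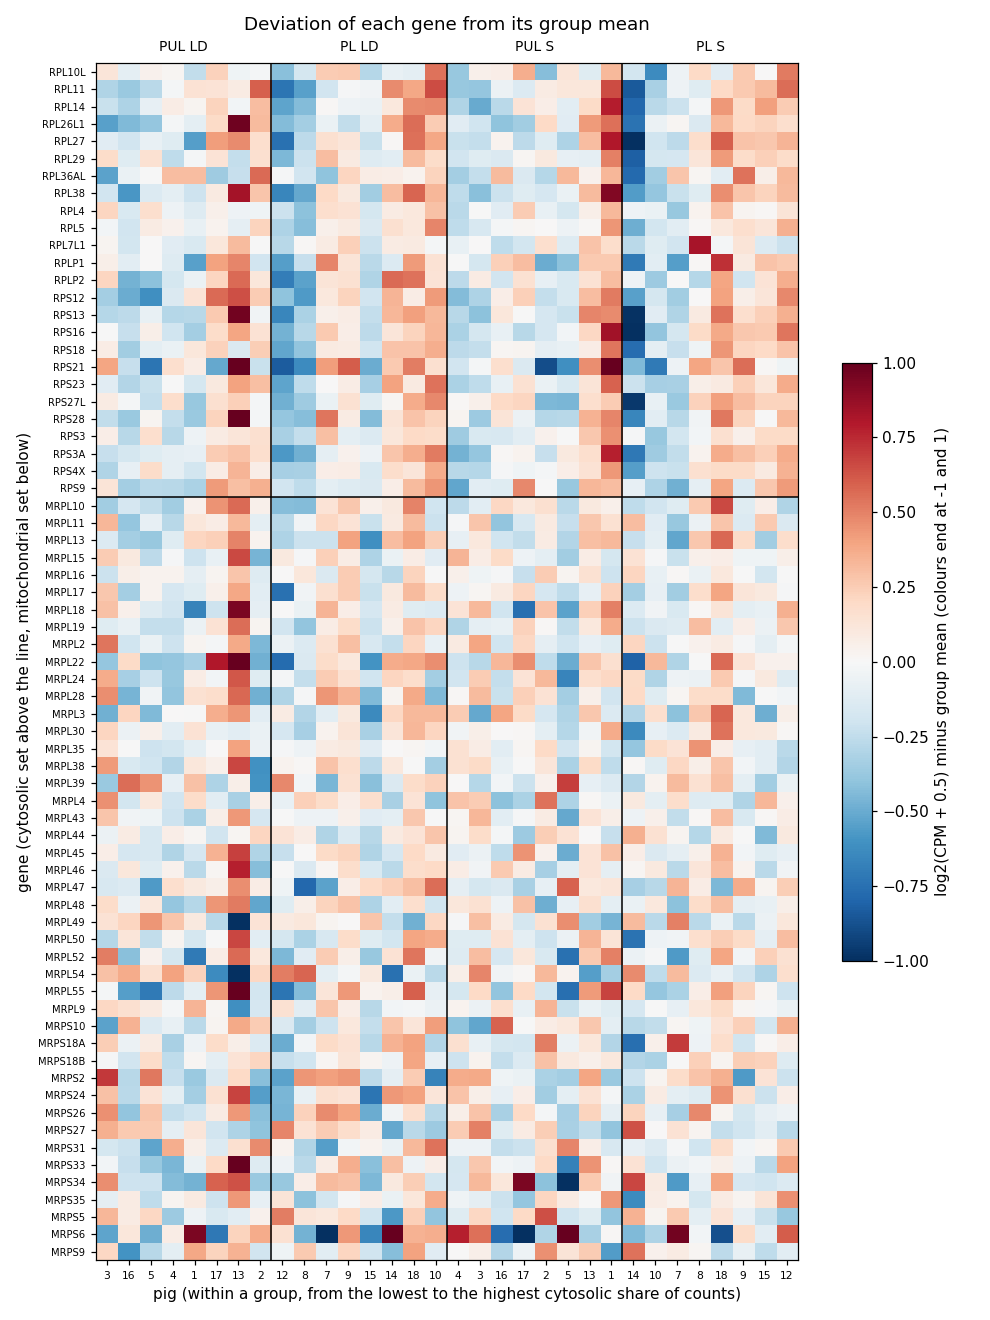
Deviation of 69 of the genes from their group means, as log2(CPM + 0.5), in the 32 libraries. Columns are pigs ordered within each group by the cytosolic share of counts; this order, from 1.35% in PL S pig 14 to 3.13% in PL S pig 12 for instance, by itself places high values of cytosolic genes (above the line) to the right, so the picture shows single values and is no comparison of the sets.

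Other genes of translation had a wide range of rho with the mean of the cytosolic set, as descriptions over the same 32 libraries. For the summed level of a list it was 0.035 for translation factors, 0.384 for ribosome biogenesis and -0.069 for mitochondrial translation, and with the mitochondrial mean 0.448, 0.695 and 0.538. The genes named next lie at or near the ends of the range in each list and were chosen after their values were seen. Of components of the small cytosolic subunit that the naming rule missed, RACK1 had a rho of 0.788 and FAU of 0.522. Of 30 translation factors, EEF1B2, a subunit of the exchange factor that recharges elongation factor 1A, had 0.923, EIF3E 0.770 and EIF3M 0.724, while EIF4G2 was at -0.780. Of 46 ribosome biogenesis genes, BYSL was highest at 0.686 and UBTF, the RNA polymerase I transcription factor, lowest at -0.815. Of 36 genes of mitochondrial translation, SLIRP, which stabilises mitochondrial messenger RNA, was at 0.843 and SARS2, a mitochondrial tRNA synthetase, at -0.872.

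None of the genes in these lists was called in a comparison, and the shares with an unadjusted p under 0.05 are to be read beside the 7.15% of all genes in LD and 11.7% in S. Of 45 tested biogenesis genes, 38 were below 0 in LD between the breeds, with a median log2 fold change of -0.12, and 30 in S, with -0.11. In LD, NOP56, a core protein of the small nucleolar RNA particles that guide methylation, had -0.75 (SE 0.26, adjusted p = 0.540), and 3 of the 45 had an unadjusted p under 0.05. Of 36 mitochondrial translation genes, 4 had one in LD, all lower in PL, and the lowest adjusted p was that of TARS2, a mitochondrial threonyl-tRNA synthetase, at 0.481 with a log2 fold change of -0.55 (SE 0.14). In S, 4 of 36 (11.1%) had one, 3 lower and 1 higher in PL, and the median was -0.01. Of 30 translation factors, 4 (13.3%) had one in S and none in LD.

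Library properties moved with the cytosolic set. Over the 32 libraries, with group means removed, its mean had a rho of 0.540 with the summed fibroblast and matrix markers, 0.536 with leukocyte markers (9 genes), -0.670 with adipocyte markers (3 genes), -0.339 with skeletal muscle genes (6 genes), -0.732 with genes of mitochondrial transcription (9 genes) and -0.070 with total counts. For the mitochondrial set the same values were 0.001, -0.098, -0.426, 0.157, -0.093 and -0.191. PUL LD pig 2, with the highest cytosolic share, had the lowest skeletal muscle sum of all libraries at 41460 CPM, where the PUL LD median was 89040. Leukocyte sums ran from 6.18 to 34.8 CPM in PUL LD, 11.9 to 85.8 in PL LD, 11.03 to 33.4 in PUL S and 15.9 to 41.2 in PL S. Their part in the variation was not tested.

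Genes other than members that had short spans in the genome also followed the cytosolic set more than long ones. With genes ranked by RefSeq span and divided into groups of 2473, 2472 and 2473, short to long, the median rho with the cytosolic mean was 0.111, -0.017 and -0.128. The cytosolic members had a median span of 3107 bases and the mitochondrial members one of 10117. The other marker lists had a rho with the cytosolic mean of -0.313 (slow fibre), 0.067 (fast fibre), 0.018 (endothelial), -0.438 (smooth muscle), 0.282 (red blood cell) and -0.075 (hepatocyte). RNA integrity of single libraries is not given in the sources used here, so its part in the variation was not tested.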

How the data were processed

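RNA was extracted from LD and S of 16 gilts, depleted of ribosomal RNA and made into 32 libraries, which were read from one end on a HiScanSQ. Per the labels and the study's methods, the authors trimmed reads with Flexbar, aligned them with Bowtie2 to the Sscrofa 10.2 transcripts and deposited RSEM expected counts per gene ID, here rounded to whole numbers. The protocol does not mark strand, so overlapping antisense genes are not separated. Symbols came from a table of pig Ensembl IDs. Lanes of single libraries are not given in the sources used here.

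Genes were filtered with filterByExpr, scaled by TMM and fitted over the whole table with edgeR's quasi-likelihood test (edgeR 4.0.16, R 4.3.3) with Benjamini-Hochberg adjustment. A gene was called at an adjusted p at or under 0.05 and a fold change of at least 1.3. Breeds were compared within each muscle without a block. Muscles within each breed, and the breed by muscle term, were fitted with pig as a block, since LD and S came from the same animal, although the correlation of their deviations ran from -0.517 to 0.686 (median 0.196). CPM used TMM factors over all libraries, with a pseudocount of 0.5 on the log scale. Total counts ranged from 8821273 to 24761853, and no pair of libraries of the same group agreed within sampling noise.

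Genes named were the qPCR control RPL27, paralogs listed by name, the 3 genes of each set with the smallest p per comparison, the 2 per set for the breed by muscle term, and the genes with the highest and lowest mean CPM. Some items that this rule names are not reported here. Others are named where they make up a count or stand at the end of a range. Members, lists and tests were chosen with earlier results of these data known. The comparisons of positional genes, co-variation subsets, marker correlations and gene spans, and the exclusion of PL pigs 8 and 14, were chosen after seeing the data. Alternatives were RLE factors, library size alone, other filters, no fold minimum, DESeq2 1.42.0, edgeR's exact test, the block changed, and libraries or pigs left out. The fits were tested on simulated data.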

Additional observations from a re-analysis of the deposited data

Results flagged for a closer look

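Of 116 groups of 8 libraries examined for a library far from the others (the members named by p-value or level, and the set shares), 12 held one. The critical value used marks about 1 in 20 groups by chance when groups are independent, which these, sharing libraries and genes that vary together, are not. Most were PUL S pig 1. In it the cytosolic set took 3.81% of counts and the ratio of cytosolic to mitochondrial counts was 16.3. The same library was far above the rest of PUL S for RPL27 at 676.7 CPM, RPL14 at 1367, RPL5 at 1375, RPL29 at 1543 and RPS21 at 310.5, and for the mitochondrial gene MRPL30 at 86.8. The skeletal muscle markers summed to 56450 CPM in it, the lowest of PUL S. The part of that difference in the ribosomal protein values was not tested.

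In PUL LD, pig 2 stood apart with a cytosolic share of 3.92%, and pig 13 with 903 CPM of RPS13 and 1237 CPM of RPS28. The library labelled PL S pig 8 held 158.6 CPM of RPL7L1. Its positional genes were mixed (ZIC1 as in LD and ZIC4, HOXC6 and HOXA7 toward LD, but HOXA10 present).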

How the results depend on the processing

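No member was called in any of 218 recomputed counts, and none of 1166 recomputed gene values reached an adjusted p of 0.05, while 53 had the opposite sign. In S between the breeds, DESeq2 came close, with an adjusted p of 0.053 for MRPS24 and 0.067 for MRPL24 and MRPL28. The lowest count of a gene in a library was 14 in the mitochondrial and 47 in the cytosolic set. Relative to all genes, the cytosolic median stayed above 0 in LD between the breeds (0.02 to 0.21) and the mitochondrial median stayed below 0 in S (-0.26 to -0.17) under all 26 alternatives. Dropping the fold minimum, however, cannot change a median, and other scaling factors shift all genes nearly alike. In LD the relative cytosolic median was 0.1337 in the main fit, 0.1282 with RLE and 0.1315 with library size alone. Of the 26 alternatives, 16 left out 1 library each and so shared most of their libraries. The mitochondrial median in LD between the breeds changed sign in 4 of 26 alternatives, and the cytosolic one between muscles in PUL in 1 of 16. The cause of differences between settings was not tested.

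Genes called between breeds in LD (0) were 4 without a filter, 19 by DESeq2, 13 by the exact test, 1 without PUL pigs 1 to 5, 2 without PL pigs 8 and 14, and 0 to 1 with a library left out. In S (0) they were 1 with RLE, 4 without a filter, 103 by DESeq2, 56 by the exact test, 1 without PUL pigs 1 to 5, 2 without PL pigs 8 and 14, and 0 to 1. Between muscles in PUL (7) they were 25 without a filter, 3 at 10 counts in every library, 112 by DESeq2, 12 without PUL pigs 1 to 5, and 3 to 15. In PL (0) they were 2 by DESeq2 and 3 without pigs 8 and 14, and for the breed by muscle term (0) 1 by DESeq2.

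With library size alone, the mitochondrial median was -0.19 in LD between the breeds and 0.088 for the breed by muscle term. Log2 fold changes in LD between the breeds turned to -0.12 for RPL27, -0.061 for RPLP1 and -0.12 for MRPL28. Between muscles they turned to -0.078 for RPL27, -0.018 for RPS27L, -0.051 for RPL36AL and -0.0054 for RPS9 in PUL and to 0.10 for RPS27L and 0.056 for MRPL54 in PL. Without PUL pigs 1 to 5, values in LD turned to -0.19 for RPL27, -0.16 for RPLP1, 0.26 for RPL36AL, -0.064 for MRPL28, 0.41 for MRPL54 and -0.047 for RPS13, in S to -0.089 for RPS27L, and between muscles in PUL to -0.16 for RPL27 and 0.028 for MRPL54. Without PL pigs 8 and 14 they turned to 0.0057 for RPL36AL in LD and 0.048 for RPS27L between muscles in PL.

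With the replicate number as a block in the breed comparisons RPL36AL in LD turned to 0.022, and without the block RPS27L between muscles in PL turned to 0.0074. With the block changed no member was called. The 95 values recomputed in these fits also included all-gene counts and medians, which cannot alter a call of a member. Same-numbered PUL and PL pigs share only a number (correlations of -0.308 to 0.552, median 0.138).

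With a library or pig left out, values that changed sign ran, in LD between the breeds, from -0.031 to 0.13 for RPL27, -0.072 to 0.0093 for RPL7L1, -0.080 to 0.089 for RPL36AL, -0.028 to 0.13 for MRPL28 and -0.19 to 0.034 for MRPL54. In S they ran from -0.24 to 0.00060 for RPL27 and -0.0054 to 0.19 for RPL7L1. Between muscles they ran in PUL from -0.13 to 0.14 for RPL27 and -0.15 to 0.0096 for RPLP1, and in PL from -0.25 to 0.053 for MRPL54, -0.31 to 0.016 for RPL27, -0.035 to 0.14 for RPL7L1 and -0.12 to 0.13 for RPS27L.

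With the 10 genes of most counts out of the denominator, median cytosolic shares were 3.78% (PUL S), 3.84% (PL S), 3.98% (PUL LD) and 4.17% (PL LD), and mitochondrial shares 0.342%, 0.303%, 0.322% and 0.305%. Without RPLP1 the ratios were 9.23, 10.00, 9.78 and 10.96, and the PUL LD cytosolic share was 2.06%.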
